A study of Mus musculus with 7 samples.

Results

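The genes described here encode the machinery that carries proteins into mitochondria, apart from Tomm6os, an antisense gene taken in by its name. They were chosen by name: all symbols that begin with Timm or Tomm followed by a number, with Pam16, Grpel1, Grpel2, Pmpca, Pmpcb, Samm50, Chchd4 and Dnajc19 added. The rule found 32 of the 21487 genes in the table, and 31 of them had enough counts to be tested. They were measured in gastrocnemius, a calf muscle, of mice with a skeletal muscle knockout of DJ-1 (MPARK7KO) and of floxed mice, whose genotype label is WT. There were 3 control libraries and 4 knockout libraries. All 7 came from muscle in which immobilization had induced atrophy, so the comparison is knockout minus control within immobilized muscle. The promoter that drove the recombinase, the strain, the age and the sex of the mice are not given in the labels or the notes used here. The labels do not say that each library came from a separate animal, so the p-values measure only the spread between these samples.

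Nearly all mitochondrial proteins are made in the cytosol and enter through the translocase of the outer membrane (TOM), whose receptors bind precursors and whose channel is formed by Tom40. From there the sorting and assembly machinery (SAM) inserts beta-barrel proteins, small Tim chaperones and the oxidoreductase CHCHD4 serve the intermembrane space, TIM22 inserts carriers into the inner membrane, and TIM23 with its ATP-driven motor pulls presequence proteins into the matrix. There the mitochondrial processing peptidase (MPP) cuts off the presequence. Muscle fibres are rich in mitochondria and depend on this route for the nuclear subunits of the respiratory chain.

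Library totals ran from 24458343 to 26389010 counts. Park7, which encodes DJ-1, averaged 245 ± 18.8 CPM in controls (counts-per-million, SD, n = 3) and 37.3 ± 2.94 CPM in knockouts (SD, n = 4). Its log2 fold change was -2.71 with a standard error (SE) of 0.0895 and an adjusted p of 2.52e-06 by edgeR's quasi-likelihood test with Benjamini-Hochberg adjustment, the test behind all adjusted p-values below unless another is named. Genes count as called where that value lay under 0.05. The 8 markers of skeletal muscle fibres summed to between 68090 and 79150 CPM in controls and to between 69960 and 88930 CPM in knockouts. Of them, 7 lay above 0 in log2 fold change and 1, Actn3, was called higher (0.74, adjusted p = 0.0214), beside 6.67% of all tested genes. The call of Actn3 was lost without control 1 or control 2. The markers of slow fibres summed to between 1730 and 2028 CPM in controls. Their sums were 674.6, 119.7, 70.7 and 673.3 CPM in knockouts 1 to 4, an uneven spread. All 8 were lower in every knockout than in every control (median log2 fold change -2.37), beside 14.8% of all tested genes. Of these 8, 3 passed the test, all lower, beside 8.23% of all tested genes called lower. That count was 1 without control 1, control 2 or control 3. Markers of other cells were detected in all libraries, with fibroblast sums from 317.4 to 729.7 CPM in controls and from 225.6 to 371.4 CPM in knockouts. Macrophage sums were 51.75 to 84.11 and 34.94 to 54.87 CPM, endothelial sums 221.2 to 290 and 197.3 to 235 CPM, and Schwann cell sums 65.13 to 259.2 and 41.36 to 58.37 CPM. Erythroid sums were 223.4 to 808.2 and 100.6 to 235.2 CPM, adipocyte sums 9.12 to 19.9 and 6.17 to 12.01 CPM, and satellite cell sums 47.96 to 52.36 and 53.64 to 59.25 CPM. In bulk muscle, fewer cells of a type and less RNA per cell cannot be told apart, and the part of these markers in the results below was not tested.

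Most import genes differed little between the groups. Of the 31 tested, 3 fell and 1 rose in the knockout. The falls were Tomm40l, a second copy of the Tom40 channel, Pmpcb, the catalytic subunit of MPP, and Timm44, the anchor of the import motor. The rise was Tomm6, a small subunit of the TOM complex. Over all 13409 genes tested, 8.23% were called lower and 6.67% higher (14.9% in all), against 9.68% and 3.23% of the import genes, so the share of import genes called was near the background. The median log2 fold change of the import genes was -0.04 (from -0.68 to 0.31, 21 below 0 and 10 above), beside 0.0058 for all tested genes. With upper quartile scaling these medians were -0.09 and -0.04. Groups did not overlap for 12 of the 31 import genes, 10 of them lower and 2 higher, beside 14.8% of all genes lower and 14.0% higher (28.8% in all). By this measure the lower share lay above that of all genes and the higher share below it, a difference that was not tested. As a share of all counts, the import genes took 0.141% to 0.155% in controls and 0.131% to 0.153% in knockouts, which overlap.

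**Figure D1:**
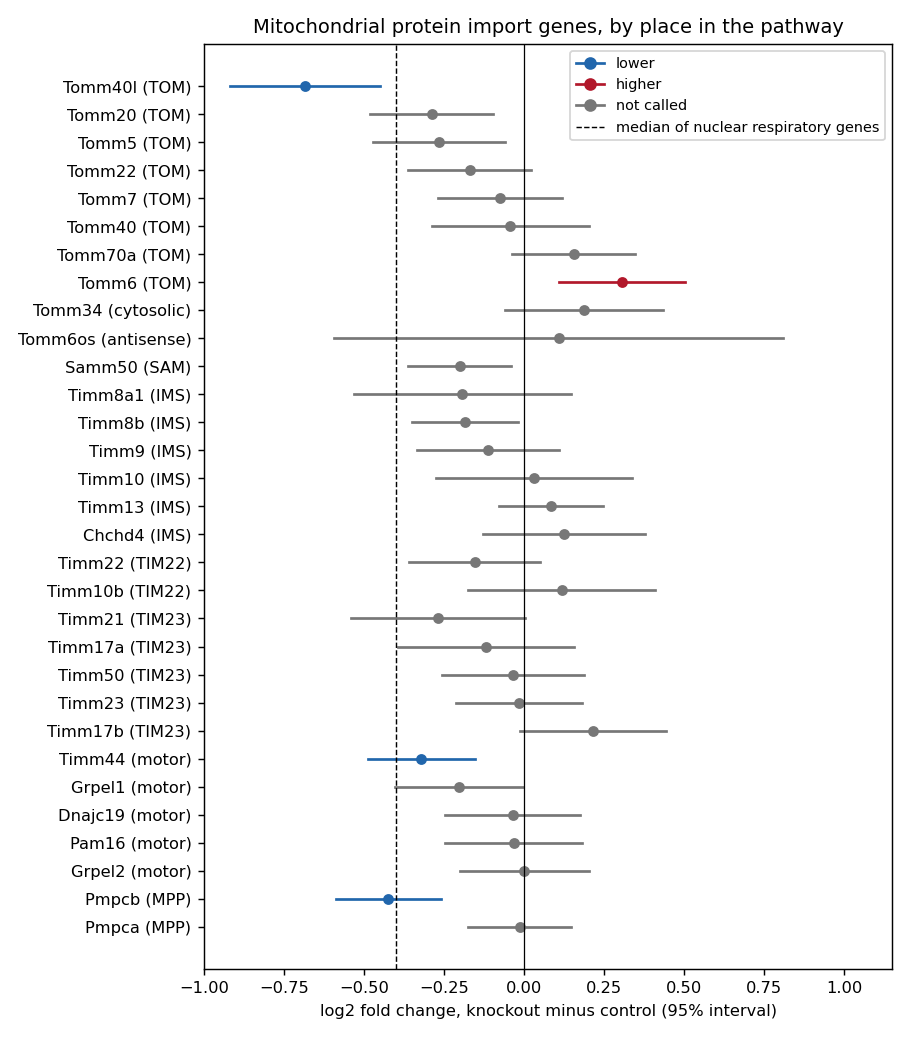
Log2 fold change (knockout minus control) of the 31 tested import genes, ordered by place in the pathway, as points with 95% intervals from the fit over all genes. The dashed line marks the median of 76 nuclear respiratory genes at -0.40, and the 3 called falls and the 1 called rise are coloured, while most intervals cover 0.

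The promoters of Pmpca, Pmpcb and Timm44 are shown because Pmpcb and Timm44 fell while Pmpca, the partner of Pmpcb in one enzyme, was not called. They are from RefSeq on GRCm38.p6, 250 bases before to 50 after the start of each gene, written 5′ to 3′ on the strand of the gene. They lie at chr2:26389098-26389397 (Pmpca, plus strand), chr5:21736910-21737209 (Pmpcb, plus strand) and chr8:4275856-4276155 (Timm44, minus strand). Capitals mark a match to 1 of 4 searched motifs, looked for on both strands: CCGGAAG (ETS factors), the NRF1 motif, AAGGTCA (oestrogen-related receptors) and AAGATGG (YY1).
Pmpca: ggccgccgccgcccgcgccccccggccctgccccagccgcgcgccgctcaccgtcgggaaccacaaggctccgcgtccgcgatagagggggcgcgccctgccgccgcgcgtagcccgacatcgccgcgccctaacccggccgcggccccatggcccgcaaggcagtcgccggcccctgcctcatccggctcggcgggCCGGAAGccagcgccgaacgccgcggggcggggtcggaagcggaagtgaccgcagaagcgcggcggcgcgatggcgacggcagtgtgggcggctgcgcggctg
Pmpcb: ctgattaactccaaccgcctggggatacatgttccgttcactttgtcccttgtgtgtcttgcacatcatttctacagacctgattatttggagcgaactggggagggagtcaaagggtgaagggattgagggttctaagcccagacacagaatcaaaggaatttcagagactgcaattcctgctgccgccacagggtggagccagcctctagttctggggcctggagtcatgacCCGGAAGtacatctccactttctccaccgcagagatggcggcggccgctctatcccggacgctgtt
Timm44: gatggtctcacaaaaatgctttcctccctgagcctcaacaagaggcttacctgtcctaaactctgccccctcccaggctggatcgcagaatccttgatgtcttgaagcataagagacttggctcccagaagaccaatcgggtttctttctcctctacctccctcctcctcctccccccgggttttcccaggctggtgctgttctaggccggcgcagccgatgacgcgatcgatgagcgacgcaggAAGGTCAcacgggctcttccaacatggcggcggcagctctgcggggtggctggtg
Both MPP promoters hold 1 ETS match and the Timm44 promoter 1 match to the receptor motif. A promoter entry was found for 28 of the 32 genes, with 30 windows in all, and not for Tomm40l, Timm21, Grpel2 or Tomm7. The ETS motif was in 12 of the 30 import windows (40.0%, or 11 genes, since Tomm34 has a pair of overlapping windows), in 16.4% of promoters of tested genes, in 20.6% of 68 promoters of nuclear respiratory genes and in 8.86% of all 32851 promoters. Tomm22 and Timm10 held 3 ETS matches each, and Timm23, Tomm70a, Timm8a2 and 1 window of Tomm34 held 2. The NRF1 motif was in 13.3% of the import windows and 12.4% of promoters of tested genes, and the receptor motif in 3 of the 30 and 3.26%. The YY1 motif was in 3 of the 30 import windows and 6.84% of promoters of tested genes. No match was found in 12 import windows, Samm50, Tomm40 and Tomm6 among them, and 1 pair of matches to different motifs overlapped. A match describes letters only.

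The TOM complex held the largest fall and the only rise. Tomm40l (chr1:171216011-171222514, minus strand, GENCODE M21 on GRCm38) stood at 36.2, 35.2 and 37.4 CPM in controls 1 to 3 and at 26.6, 20.6, 22.7 and 20.5 CPM in knockouts 1 to 4. All 4 knockouts lay below all 3 controls, and knockout 1 was the highest of the 4. The mean fell from 36.28 ± 1.124 to 22.6 ± 2.83 CPM (log2 fold change -0.68, SE 0.104, adjusted p = 0.00653). The call held without each library in turn (adjusted p from 0.00615 to 0.0298). Its expected counts were not whole numbers in any of the 7 libraries, a sign of reads shared with another feature, and it overlaps Nr1i3 on the opposite strand, which had at most 5.89 counts. Tomm40, the main channel gene, stood at 21.6, 28.3 and 22.2 CPM in controls and at 22.6, 22.2, 24.4 and 24.1 CPM in knockouts. Control 2 was the highest and the groups overlapped (log2 fold change -0.04, 95% interval -0.29 to 0.20, adjusted p = 0.820). Per kilobase of exon, with all annotated exons of a gene merged, the mean level of Tomm40l was 7.07 CPM in controls and 4.40 in knockouts. That of Tomm40 was 5.33 and 5.17.

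Tomm6 (chr17:47686646-47688386, minus strand) stood at 19.46, 21.04 and 19.90 CPM in controls and at 26.5, 22.4, 25.5 and 25.1 CPM in knockouts. All knockouts lay above all controls, knockout 2 by the least. Its log2 fold change was 0.31 (SE 0.0875, adjusted p = 0.0473). This call was narrow: it held without knockout 2 (adjusted p = 0.0261) and was lost without any other library (0.0798 to 0.159). It was also lost with upper quartile scaling (0.0823) and RLE scaling (0.0516). Tomm6 shares its place with the antisense gene Tomm6os (8.89 to 15.04 counts per library) and with Usp49 on the opposite strand (133 to 173 counts). It also overlaps Gm21981, a protein-coding gene on the same strand. Expected counts of Tomm6 were not whole numbers in 5 of the 7 libraries. Whether the counting used strand is not given in the labels or the notes. Tomm6os itself averaged 0.456 ± 0.0948 CPM in controls and 0.491 ± 0.0994 in knockouts, too few counts for a narrow interval (log2 -0.59 to 0.81).

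The receptors Tomm20 and Tomm70a stood on opposite sides of 0. Tomm20, which binds presequences, stood at 99.95, 120.9 and 104.3 CPM in controls and at 92.4, 92.2, 85.7 and 84.6 CPM in knockouts. All knockouts were below all controls, but the fold change of -0.29 (SE 0.0851) missed the threshold (adjusted p = 0.0515). DESeq2 called it (adjusted p = 0.0285), as did the fit with upper quartile scaling. Tomm70a, the receptor for carrier precursors, stood at 63.5, 69.8 and 66.7 CPM in controls and at 79.3, 70.5, 79.6 and 67.4 CPM in knockouts. Knockout 4 lay among the controls, and the fold change was 0.15 (SE 0.0851, adjusted p = 0.249). Tomm22, the central receptor, averaged 35.1 ± 1.45 and 31.2 ± 2.39 CPM without overlap (adjusted p = 0.205). The small subunit Tomm5 averaged 22.3 ± 1.89 and 18.56 ± 1.001 CPM, also without overlap (adjusted p = 0.0838), and Tomm7 averaged 23.0 ± 0.949 and 21.9 ± 1.43 CPM with overlap (adjusted p = 0.576). Tomm34, a cytosolic co-chaperone of precursor delivery, averaged 9.82 ± 0.881 and 11.2 ± 0.827 CPM with overlap (adjusted p = 0.276).

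**Figure D2:**
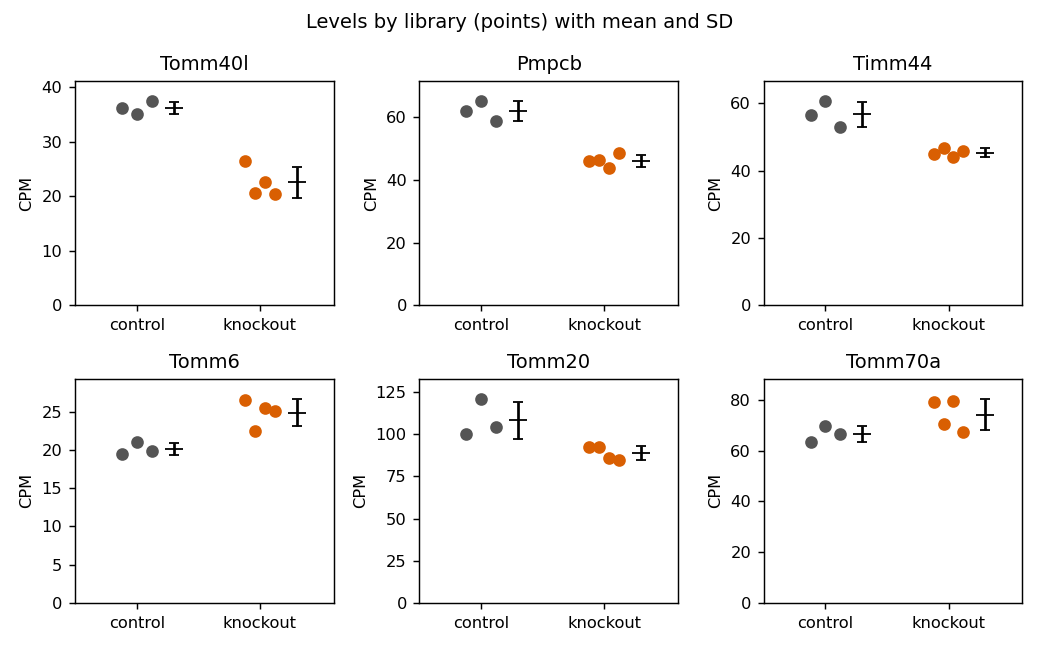
CPM by library (points) with the mean and SD beside them, in 3 control and 4 knockout libraries, for the 4 called genes and the 2 TOM receptors. Groups do not overlap for Tomm40l, Pmpcb, Timm44, Tomm6 and Tomm20, and they overlap for Tomm70a.

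Neither Samm50 nor any of the import genes of the intermembrane space and TIM22 was called. Samm50, the core of the SAM complex, stood at 199.8, 200.1 and 195.9 CPM in controls and at 181.7, 159.5, 170.4 and 179.1 CPM in knockouts. The groups did not overlap, and the fold change of -0.20 (SE 0.0717) missed the threshold (adjusted p = 0.0914). Chchd4, which oxidizes cysteine pairs of incoming proteins, averaged 12.8 ± 0.266 and 13.9 ± 1.66 CPM (adjusted p = 0.479). Of the small Tim chaperones, Timm8b averaged 53.5 ± 1.11 and 47.1 ± 2.56 CPM without overlap (adjusted p = 0.120). Timm9 averaged 11.6 ± 0.962 and 10.7 ± 0.393 CPM, Timm10 11.2 ± 2.09 and 11.5 ± 0.869 CPM, and Timm13 33.1 ± 1.32 and 35.03 ± 1.031 CPM, all with overlap. Timm8a1 averaged 9.59 ± 0.464 and 8.38 ± 1.48 CPM, with knockout 4 at 6.17 CPM and the other knockouts between 9.04 and 9.18 CPM. Its groups did not overlap, but only narrowly, since control 1 stood at 9.29 CPM (adjusted p = 0.412). Timm8a2 had 1 count in each control and in knockout 1 and none in the other knockouts, and was not tested. In the TIM22 complex, the channel gene Timm22 averaged 28.1 ± 0.809 and 25.3 ± 2.30 CPM and Timm10b, a small Tim bound to it, 7.47 ± 0.713 and 8.11 ± 0.925 CPM. Both overlapped between groups (adjusted p = 0.276 and 0.569).

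None of the import genes of the TIM23 channel was called either. Timm23, which forms the channel, stood at 223.0, 252.2 and 211.6 CPM in controls and at 240.2, 208.5, 223.5 and 233.5 CPM in knockouts. The groups overlapped and the fold change was -0.02 (95% interval -0.21 to 0.18). It had the highest level of the import genes per kilobase of merged exons, 128.2 CPM in controls and 126.8 in knockouts, followed by Timm8b at 103.3 and 90.9. This order depends on how much exon is annotated for each gene. Timm50, the receptor of the complex, averaged 27.8 ± 1.72 and 27.1 ± 2.71 CPM (adjusted p = 0.833). Timm17a and Timm17b encode alternative versions of 1 subunit. Timm17a averaged 89.4 ± 11.4 and 82.3 ± 10.8 CPM with overlap (adjusted p = 0.536), and Timm17b averaged 13.24 ± 1.197 and 15.4 ± 0.993 CPM, higher without overlap but not called (adjusted p = 0.183). Timm21, which links TIM23 to the outer membrane and to respiratory complexes, averaged 15.6 ± 1.32 and 12.9 ± 1.61 CPM with overlap (adjusted p = 0.159).

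In the motor, Timm44 (chr8:4259731-4275913, minus strand) stood at 56.5, 60.6 and 53.0 CPM in controls and at 45.1, 46.8, 43.9 and 45.8 CPM in knockouts. All knockouts lay below all controls and within a narrower range. The log2 fold change was -0.32 (SE 0.0737, adjusted p = 0.0237). The call was lost without control 1 (adjusted p = 0.0684), control 2 (0.0786), knockout 3 (0.0649) or knockout 4 (0.0517). Grpel1, the nucleotide exchange factor of the motor's Hsp70, averaged 59.6 ± 7.15 and 51.8 ± 1.19 CPM without overlap (adjusted p = 0.153). Its paralog Grpel2 averaged 19.8 ± 1.83 and 19.8 ± 0.492 CPM (95% interval of the log2 fold change -0.20 to 0.20). Dnajc19, a J-domain protein of the motor, did not pass either, at 19.4 ± 0.554 and 18.9 ± 1.64 CPM. Nor did Pam16, at 17.8 ± 0.939 and 17.4 ± 1.36 CPM. Dnajc19 overlaps Fxr1 on the opposite strand, which had at least 9602 counts per library.

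Of the subunits of MPP, Pmpcb was called and Pmpca was not. The exact test of their ratio, given below with the other pairs, reached its smallest p. It did not pass after adjustment (adjusted p = 0.129), which a pair on its own could not do. Pmpcb (chr5:21737141-21757152, plus strand) stood at 61.9, 65.0 and 58.8 CPM in controls and at 45.9, 46.4, 43.8 and 48.4 CPM in knockouts. All knockouts lay below all controls, with a gap wider than the spread within either group. The log2 fold change was -0.42 (SE 0.0727, adjusted p = 0.00894), and the call held without each library in turn (adjusted p from 0.0130 to 0.0342). Pmpca (chr2:26389339-26397122, plus strand), the subunit that helps to bind presequences, stood at 161.1, 157.2 and 161.9 CPM in controls and at 156.9, 151.3, 154.1 and 171.4 CPM in knockouts. The groups overlapped and the log2 fold change was -0.01 (95% interval -0.17 to 0.15). Pmpca overlaps Inpp5e on the opposite strand (314 to 445 counts) and its expected counts were not whole.

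Within 9 pairs of paralogs or partners the ratio of CPM in each library, with 0.5 CPM added to both genes, was compared between the groups with an exact 2-sided permutation test (35 ways to assign the libraries, smallest p 0.0286), adjusted over the 9 pairs. None passed. The ratio of Pmpca to Pmpcb was 2.59, 2.41 and 2.74 in controls and 3.40, 3.24, 3.49 and 3.51 in knockouts. All knockouts were higher, by 0.40 on the log2 scale (exact p = 0.0286, adjusted p = 0.129). The ratio of Tomm20 to Tomm70a was 1.57, 1.73 and 1.56 in controls and 1.17, 1.31, 1.08 and 1.25 in knockouts, lower in all of them (log2 difference -0.43, exact p = 0.0286, adjusted p = 0.129). The ratio of Tomm40 to Tomm40l was 0.603, 0.808 and 0.599 in controls and 0.855, 1.08, 1.08 and 1.17 in knockouts (log2 difference 0.65, exact p = 0.0571, adjusted p = 0.171). Timm17a over Timm17b differed by -0.33 and Grpel1 over Grpel2 by -0.20 on the log2 scale, both with overlap (exact p = 0.114 for each). The pairs Timm8a1 and Timm8b, Timm9 and Timm10, Timm10 and Timm10b, and Timm23 and Timm50 differed by between -0.15 and 0.02, also with overlap.

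**Figure D3:**
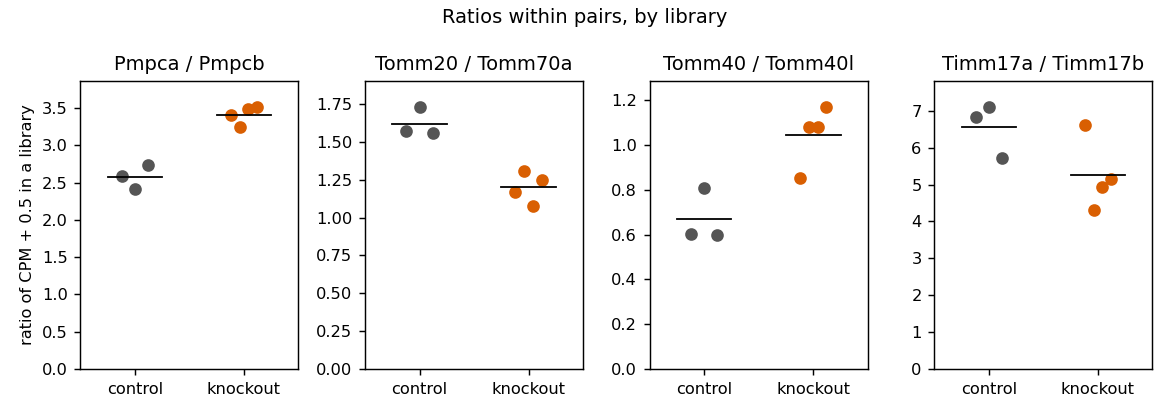
Ratio of CPM + 0.5 between the genes of 4 pairs in each library (points), with the mean of each group as a line, for 3 control and 4 knockout libraries. The ratios of Pmpca to Pmpcb and of Tomm40 to Tomm40l lie higher in every knockout, that of Tomm20 to Tomm70a lies lower in every knockout, and that of Timm17a to Timm17b overlaps.

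Genes around the import machinery were examined as lists, whose counts stand beside 8.23% of all tested genes called lower and 6.67% higher. The nuclear genes of the respiratory chain, ATP synthase and citrate synthase, whose proteins are imported, numbered 76, of which 62 fell and none rose (median -0.40). Among them were Sdhb of complex II (287 to 160 CPM, adjusted p = 0.00269) and Cox7a1 of complex IV (97.7 to 56.2 CPM, adjusted p = 0.00207). Without controls 1, 2 or 3 the number called was 39, 40 and 41. Of the 13 mRNAs of mitochondrial DNA, which need no import, 12 fell (median -0.81), ND3 and ND4L among them. Carriers of the inner membrane, which travel by TIM22, held 8 falls and 1 rise among 14 (median -0.52). Slc25a11, the oxoglutarate carrier, fell from 221 ± 9.87 to 136 ± 10.1 CPM, and Slc25a20, the carnitine carrier, from 93.0 ± 10.5 to 49.5 ± 8.76 CPM. Slc25a25, a calcium-regulated ATP-Mg carrier, rose from 20.5 ± 0.656 to 76.8 ± 13.7 CPM, with a log2 change of 1.91, an SE of 0.140 and an adjusted p of 0.00103, and kept its call whichever library was left out. With control 1 left out 4 carriers were called lower, with control 2 left out 3, and with knockout 3 left out 5.

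Of 21 twin-cysteine proteins taken up by the CHCHD4 route, some of which are respiratory subunits, 6 fell and none rose (median -0.17), beside 8.23% and 6.67% of all tested genes. Ndufb10 and Ndufa8, both of complex I, fell by 0.53 and 0.50 on the log2 scale. These falls are not separate from those of the other lists. Ndufb10, Ndufa8, Uqcrh, Cox6b1 and Ndufb7 are also counted among the respiratory falls, and Chchd3 among those of MICOS below. Leaving out control 1 brought the count to 2, and leaving out control 2 or knockout 3 brought it to 3. In the MICOS complex, which shapes cristae and binds SAMM50, 3 of 8 genes fell and none rose (median -0.20, beside the same 8.23% and 6.67%): Minos1 by 0.44, Apool by 0.37 and Chchd3 by 0.30 on the log2 scale. Only 1 was called without control 2 or control 3. Of 18 partners of the import machinery inside mitochondria, 4 fell and 1 rose (median -0.13, again beside 8.23% and 6.67%). Mtx2, a SAM partner, fell from 20.8 ± 2.81 to 13.8 ± 2.78 CPM (adjusted p = 0.0375), and Hspa9, the Hsp70 of the motor that Timm44 anchors, fell from 614 to 466 CPM (adjusted p = 0.0495). The other falls were Immp2l, a peptidase of the inner membrane, and Mtch1, and the rise was Gfer, the oxidase that recharges CHCHD4 (28.2 ± 3.60 to 39.0 ± 4.23 CPM, adjusted p = 0.0295). No fall among these partners was called without any 1 of the 3 controls or without knockout 3, and 1 was called without knockout 2, without knockout 4 or with no filter on low counts. The rise of Gfer was lost without control 1, control 3 or knockout 3.

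**Figure D4:**
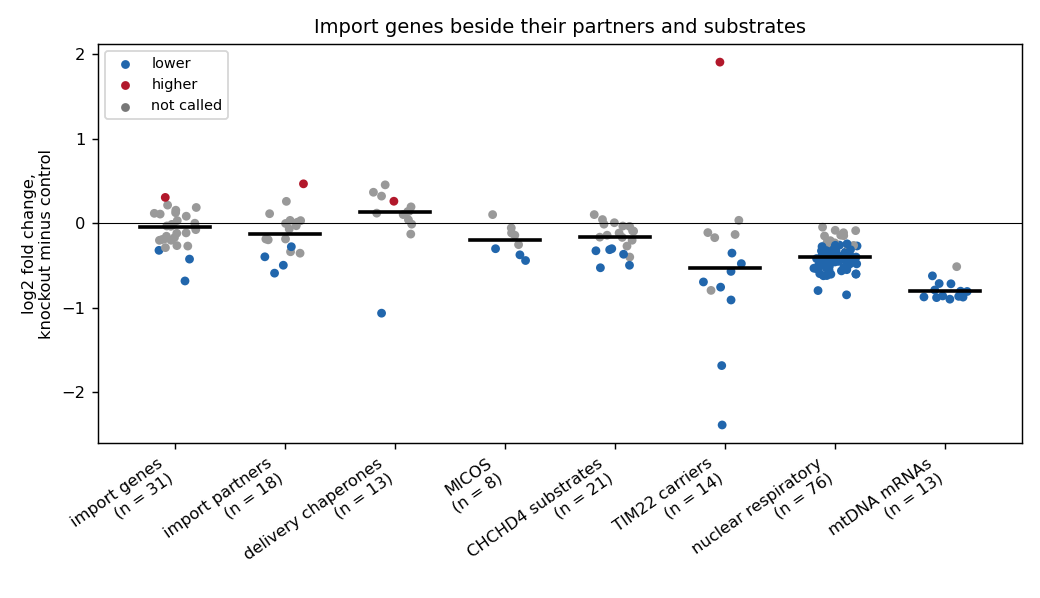
Log2 fold change (knockout minus control) of single genes (points) in 8 lists, with the median of each list as a line and called genes coloured. The import genes lie around 0, while nuclear respiratory genes and mitochondrial DNA mRNAs lie below it in full.

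On the scale of log2(CPM + 0.5), each import gene was set against the nuclear respiratory genes of its own library, whose mean log2 level fell by 0.400. On that scale 21 of the 31 import genes lay higher in every knockout than in every control and none lay lower. Of all tested genes, 54.0% lay higher without overlap on the same scale and 2.44% lower. In the exact 2-sided permutation test of each gene, 17 import genes reached the smallest p this design allows (0.0286), and their value adjusted over the 31 genes was 0.0521, so none passed. A fit over all genes with library sizes set by the respiratory genes, added after the data had been seen, called 18 import genes higher and none lower, and 13 to 20 were called higher with 1 library left out, with 1 called lower, Tomm40l, when knockout 1 was left out. The same fit called 49.4% of all tested genes higher and 3.05% lower. The median log2 change on that scale was 0.36 for import genes and 0.41 for all tested genes. Tomm6 lay 0.71 higher (adjusted p = 0.000941), Timm17b 0.62 and Tomm70a 0.56, while Pmpcb at -0.02 and Timm44 at 0.08 were not called. Tomm40l lay at -0.28 (adjusted p = 0.0883). The fall of Pmpcb was of the size of the respiratory median, and the import genes as a list lay close to all tested genes.

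**Figure D5:**
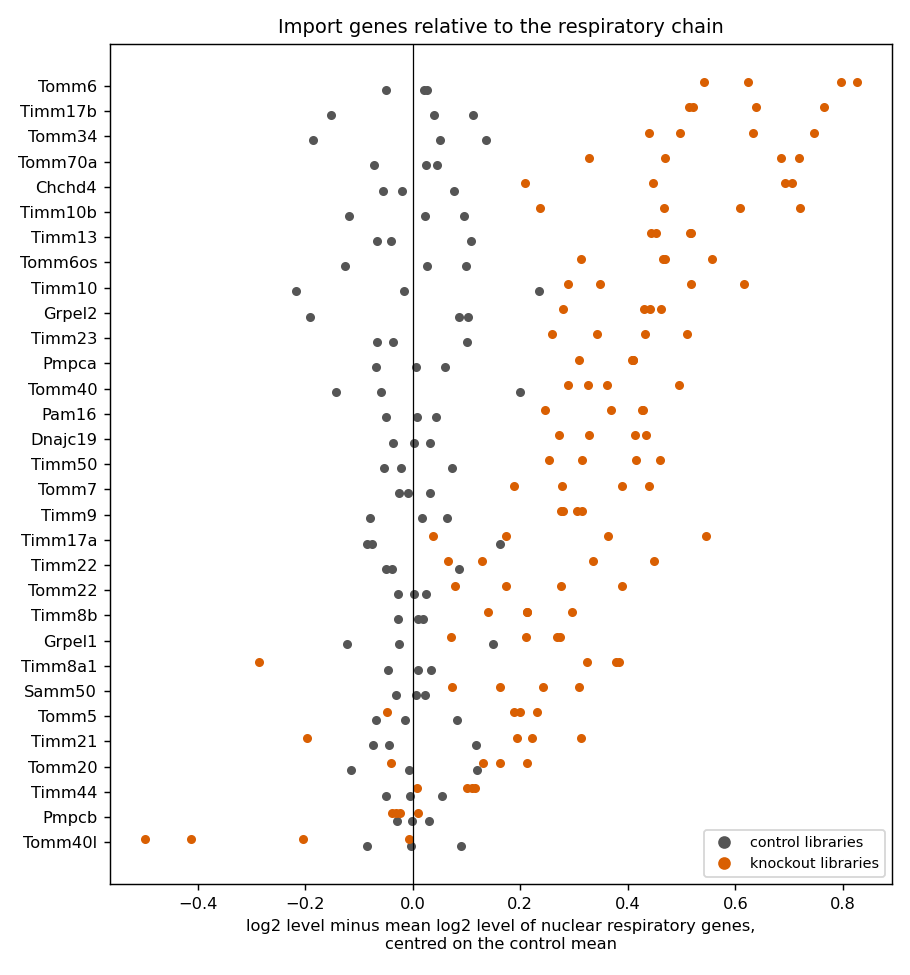
Log2 level of each import gene minus the mean log2 level of 76 nuclear respiratory genes in the same library, centred on the control mean, for 3 control and 4 knockout libraries. Knockouts lie above all controls for 21 of the 31 genes and Pmpcb lies near 0. The knockout mean of Tomm40l lies below 0, while its groups overlap.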

How the data were processed

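RNA from 7 gastrocnemius samples was sequenced in paired ends of 150 bp (BGISEQ-500), per the labels' protocols. Per the submitters' processing notes, STAR 2.7.10a, RSEM 1.2.28, DESeq2 (given as 1.3.40) and the build mm10 were used. The deposited table holds expected counts per gene, estimated by the authors, and these values were rounded for the tests. Values with decimals point to reads that RSEM divided among features. Strand and annotation are not given in the labels or the notes.

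The main test was edgeR 4.0.16 in R 4.3.3 (filterByExpr, TMM, quasi-likelihood F test with the prior not robust, Benjamini-Hochberg over 13409 genes). CPM are on TMM library sizes, with SD over libraries. Ratios and relative levels used log2(CPM + 0.5) and exact permutation tests. Gene positions and exon lengths came from GENCODE M21, where all 32 genes matched once. Exon length is that of all annotated exons of a gene merged, not of a transcript. Alternatives were RLE and upper quartile scaling, totals and TMM without mitochondrial DNA mRNAs, genes unfiltered or kept from a mean count of 10 up, DESeq2 1.42.0, the replicate block, each library left out, a pseudocount of 2 CPM, other reference genes and, added after the data had been seen, the older quasi-likelihood fit and a fit scaled to respiratory genes. The genes and all lists, markers included, were chosen with earlier results of these data known. Every import gene is named, with Park7 and up to 3 called genes of each other list with the smallest p. Others spell out small counts and were picked after their values had been seen. Replicates differed by more than sampling noise (chi-square per degree of freedom of at least 27.6). The test was tried on simulated data first.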

Additional observations from a re-analysis of the deposited data

Results flagged for a closer look

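In Timm8a1, a small Tim chaperone of the intermembrane space, knockout 4 stood at 6.17 CPM, far from the other knockouts, whose nearest value was 9.04 CPM. The gap was 0.955 of the range of the 4 knockouts, above the 95% critical value of Dixon's test. Chance passes this limit in about 1 of 20 groups, and each of the import genes was examined, so a flag by chance can be met.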

How the results depend on the processing

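No import gene changed direction while called. Import genes called lower numbered 3, 5 with upper quartile scaling, which added Tomm20 and Tomm5, and 2 to 3 with 1 library left out. The 1 called higher, Tomm6, fell to 0 with RLE or upper quartile scaling, totals without mitochondrial DNA mRNAs or no filter, and lay at 0 to 1 with 1 library left out. Calls over all genes numbered 1998, 793 to 2057 with 1 library left out, among them 830 without control 1, 1040 without control 2, 793 without control 3, 952 without knockout 3 and 1253 without knockout 4. The share of calls that were higher was 44.8% under TMM, and upper quartile scaling brought it to 33.2%. Relative to the respiratory chain, 0 of the 31 import genes passed the exact test, whose smallest p before adjustment is 0.0286. The edgeR fit scaled to the respiratory genes called 18 of them higher, beside 49.4% of all tested genes. Same-numbered libraries deviated together weakly (correlations of 0.0945, 0.134 and 0.0854), not all above 0.1. Each control correlated best with the knockout of its own number, a hint from the data. For control 3 the margin was narrow, with 0.0809 for knockout 4, which has no control of its number. With the replicate block, calls numbered 1273 over all genes, 2 import genes lower (Tomm40l and Pmpcb) and 0 higher, import partners 1 lower and 0 higher, and stress genes 0 lower and 1 higher. The cause of these changes was not tested.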

Other observations

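Among 23 tested genes of the mitochondrial unfolded protein response and of sensing failed import, 4 fell and 1 rose (median -0.11), beside 8.23% and 6.67% of all tested genes. The falls included Oma1, a stress-activated protease of the inner membrane (23.0 ± 0.297 to 17.73 ± 1.195 CPM, edgeR adjusted p = 0.0216), Dnaja3, a matrix co-chaperone (140 ± 9.80 to 115 ± 3.38 CPM, adjusted p = 0.0325), and Htra2, a protease of the intermembrane space (9.71 ± 0.713 to 7.37 ± 0.565 CPM, adjusted p = 0.0433). The rise was Atf4, the transcription factor of the integrated stress response (138 to 183 CPM, adjusted p = 0.0483). No fall was called without any 1 of the 3 controls or without knockout 4, 1 was called without knockout 3, and 2 without knockout 1 or knockout 2. Of the 7 fits with 1 library left out, Oma1 was called in 3, Dnaja3 in 1 and Htra2 in 0. Expected counts of Htra2 were not whole numbers in any of the 7 libraries. With no filter on low counts 1 fall was called. The rise was called with control 2 left out and not with any other library left out, and it was lost with RLE or upper quartile scaling, totals without mitochondrial DNA mRNAs, no filter or the older quasi-likelihood fit.

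Of 13 regulators of nuclear genes for mitochondria, 3 fell and none rose (median -0.14), beside 8.23% and 6.67% of all tested genes. Esrrb, an oestrogen-related receptor, fell from 8.79 ± 1.79 to 2.44 ± 0.528 CPM (log2 fold change -1.84, SE 0.201, edgeR adjusted p = 0.00297), a call kept whichever library was left out. Perm1 and Ppargc1b, both coactivators of oxidative genes in muscle, fell by 0.69 and 0.66 on the log2 scale (adjusted p = 0.0406 and 0.0494), and each was called with knockout 2 left out and lost without any other library. The count was 5 without knockout 2 and 1 without any other library. Of 13 cytosolic chaperones and factors of precursor delivery, Dnaja4 fell from 208 ± 64.6 to 99.5 ± 27.3 CPM (adjusted p = 0.0216) and Ubqln1 rose from 74.6 ± 1.41 to 89.4 ± 3.97 CPM (adjusted p = 0.0357), with a list median of 0.14 and beside the same 8.23% and 6.67%. The call of Dnaja4 was lost without control 2 or knockout 3. That of Ubqln1 was lost without any library but knockout 2, with upper quartile scaling, with no filter and with the replicate block. With the block the 1 rise in the list was Hsp90aa1. Slow fibre markers were lower in the same knockout libraries (70.7 to 674.6 CPM beside 1730 to 2028 in controls), and their part in these values was not tested.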
